A study of Homo sapiens with 9 samples.

Results

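The integrin and laminin genes of U251 cells, a human glioblastoma cell line, were followed over 3 groups of 3 RNA-seq libraries each. Members were chosen by symbol alone, as the rows of the expression table named for an integrin alpha subunit (ITGA followed by a number, or ITGAV), an integrin beta subunit (ITGB1 to ITGB8) or a laminin chain (LAMA, LAMB or LAMC followed by a number). The rule found 32 of 22295 entries, and the 31 described here are 12 integrin alpha subunits, 8 integrin beta subunits and 11 laminin chains. The sh-Luci-3d cells had been infected for 3 days with a lentivirus that carries a control sh-RNA against luciferase, the sh-Ptbp1-3d cells for 3 days with a lentivirus that carries an sh-RNA against PTBP1, a splicing repressor, and the sh-Ptbp1-7d cells for 7 days with the latter. Every vector also carried the red reporter M-cherry, a single sh-RNA against PTBP1 was used, and the study's cultures were moved to a neuronal induction medium at 2 days post infection (dpi). These groups are called the control, the 3 dpi knockdown and the 7 dpi knockdown. A control at 7 dpi was not analysed here, so in the comparisons of the 7 dpi knockdown the time, the medium and the knockdown cannot be told apart. Nothing in the sources used here says that the 3 libraries of a group came from separate cultures, so the p-values measure the spread between these samples, which may be technical.

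Integrins are receptors built from 1 alpha and 1 beta subunit that hold cells to the extracellular matrix and signal through the proteins bound to their tails. Laminins are cross-shaped trimers of an alpha, a beta and a gamma chain that make up much of the basement membrane. Pairs of ITGA3, ITGA6 or ITGA7 with ITGB1, and the pair of ITGA6 with ITGB4, bind laminins, whereas ITGAV with ITGB3, ITGB5 or ITGB8 and ITGA5 with ITGB1 bind ligands such as fibronectin, vitronectin and latent TGF-beta through the arginine-glycine-aspartate motif. Glioma cells are known to use both kinds of receptor when they attach and migrate along blood vessels and white matter.

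Levels were compared as FPKM (fragments per kilobase of transcript, scaled by each library's total of mapped fragments), which is per length and allows genes to be set side by side. Differences were taken on the log2(FPKM + 0.1) scale with limma over the 15551 entries whose mean reached 0.1 FPKM, and FDR is the p-value adjusted over them. A gene is said to have risen or fallen where its FDR was below 0.05 (between the 3 dpi groups) or below 0.01 (in the comparisons of the 7 dpi group), and to have been called where its fold change was also above 2. Of the 31 members described, 21 were tested, and 19 of them had a mean of at least 1 FPKM. The sequencing depth behind each value is unknown, since FPKM values do not give it.

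PTBP1 itself averaged 115.7 ± 7.58 FPKM in the control, 63.9 ± 2.67 FPKM in the 3 dpi knockdown and 50.5 ± 0.645 FPKM in the 7 dpi knockdown (SD, n = 3 each), and the fall at 3 dpi of 0.85 on the log2 scale had an FDR of 0.00314. It no longer passed in 3 of 19 other settings tried, which were those 2 groups fitted alone (FDR 0.0821, the highest of the 3), a replicate block and leaving out 3 dpi knockdown replicate 3. The glioma markers VIM, NES and CD44 were present in all libraries, whereas GFAP and S100B, which mark astroglia, did not go above 1.15 and 0.933 FPKM. The highest level of DCX, a marker of immature neurons, was 2.14 FPKM in a single library of the 3 dpi knockdown, and the others did not go above 0.0346 FPKM. Control replicate 3 stood apart from the other libraries of its group in several of the members described here, and results that rest on it are given with and without it.

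Promoter sequences are shown for 5 members that differ in direction below, ITGAV and LAMB3 (which fell at 7 dpi) and ITGB5, LAMB1 and LAMB2 (which rose), so that the receptors and ligands can be set beside the DNA just upstream of them. They come from RefSeq (assembly GRCh38.p14), where 23 of the 31 members had an entry, and run 5′ to 3′ on the strand of the gene, with capitals marking a GC box (GGGCGG on either strand). Only bases upstream of annotated exons are printed.
ITGAV, chr2:186589806-186590055, plus strand: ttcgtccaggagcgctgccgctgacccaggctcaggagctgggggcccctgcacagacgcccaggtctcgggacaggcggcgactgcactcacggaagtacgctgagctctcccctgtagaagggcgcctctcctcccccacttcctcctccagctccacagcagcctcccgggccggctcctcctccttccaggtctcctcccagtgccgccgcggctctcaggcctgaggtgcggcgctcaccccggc
ITGB5, chr3:124901419-124901668, minus strand: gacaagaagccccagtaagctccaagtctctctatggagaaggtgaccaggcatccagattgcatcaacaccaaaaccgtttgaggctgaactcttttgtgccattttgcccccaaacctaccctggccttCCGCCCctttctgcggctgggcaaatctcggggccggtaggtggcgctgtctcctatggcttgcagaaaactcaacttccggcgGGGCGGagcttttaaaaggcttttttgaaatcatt
LAMB1, chr7:108003256-108003411, minus strand: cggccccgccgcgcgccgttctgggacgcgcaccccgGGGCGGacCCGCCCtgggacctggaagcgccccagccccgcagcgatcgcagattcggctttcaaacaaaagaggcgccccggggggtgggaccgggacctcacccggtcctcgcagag
LAMB2, chr3:49133119-49133300, minus strand: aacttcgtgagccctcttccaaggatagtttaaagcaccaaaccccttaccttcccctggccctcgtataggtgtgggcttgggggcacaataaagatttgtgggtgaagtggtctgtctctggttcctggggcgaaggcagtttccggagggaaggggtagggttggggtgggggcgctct
LAMB3, chr1:209652467-209652675, minus strand: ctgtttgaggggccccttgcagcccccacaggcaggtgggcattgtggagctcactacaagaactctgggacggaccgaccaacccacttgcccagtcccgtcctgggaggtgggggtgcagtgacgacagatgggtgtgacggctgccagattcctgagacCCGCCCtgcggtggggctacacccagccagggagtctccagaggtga

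Over the 250 bases upstream of the start, a GC box was found in 12 of the 23 members with an entry, against 42.639% of 35116 RefSeq promoter windows of the same length. The printed stretch of ITGB5 held 2 of them, that of LAMB1 also 2 and that of LAMB3 1, whereas none was found in those of ITGAV and LAMB2. The full windows of LAMB1 and LAMB2, which are longer than the stretches printed, held 4 and 1. An AP-1 motif (TGANTCA, in 6.573% of windows) was found in 1 member, LAMA3. An E-box (CACGTG, in 6.345%) and a TATA box (TATAAA, in 10.716%) were each found in 1 member, ITGA6. In the coordinates of GENCODE (GRCh38), the other called members lie at chr2:181457202-181536187 (ITGA4, plus strand), chr7:20330702-20415754 (ITGB8, plus), chr17:75721328-75757818 (ITGB4, plus), chr6:128883141-129516569 (LAMA2, plus) and chr6:112108760-112254939 (LAMA4, minus). Both strands were searched and the motifs do not overlap each other, and a match describes letters in this window only.

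Between 3 dpi groups, the knockdown went with no called change in either family in the limma fit used here. None of the 14 integrin genes tested and none of the 7 laminin genes tested was called, where 0.0129% of all entries were, and none passed the FDR alone, where 0.0322% did. At an unadjusted p below 0.05, as found for 7.24% of entries, the limma fit listed 1 member, LAMA5, the alpha chain of most adult basement membranes. LAMA5 measured 46.2, 43.3 and 51.1 FPKM in the control and 57.1, 57.5 and 53.2 FPKM in the 3 dpi knockdown, a difference of 0.26 ± 0.101 (standard error, SE) on the log2 scale with an FDR of 0.623. Its libraries did not overlap between the groups, which held for 3 of the 7 laminin genes, for 1 of the 14 integrin genes and for 10.8% of all entries. The median log2 difference was 0.0091 over the integrin genes tested, 0.098 over the laminin genes and 0.010 over all entries.

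Several integrins stood apart in control replicate 3. In that library ITGAV, ITGB1, ITGB8 and ITGA4 lay below the other control libraries and ITGA7 and ITGB4 above them. Without it, ITGA7 (difference 0.35 on the log2 scale) and ITGB4 (0.27) passed the FDR, both at an adjusted p of 0.0434. Entries that passed the FDR alone went from 5 to 986 of 15551, and entries called from 2 to 57. No integrin or laminin gene was called without it either.

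From 3 to 7 dpi of knockdown members of both families changed, and of the receptors that passed the FDR more fell than rose. Of the 14 integrin genes tested, ITGAV, ITGA4, ITGB8 and ITGB4 were called lower and ITGB5 higher, 5 genes where 14.2% of all entries were called (5.9% lower and 8.31% higher). Counting the FDR alone, 6 integrin genes fell and 1 rose, and 7 did not pass, against 15.5% of all entries falling, 20.3% rising and 35.8% passing in all. The median log2 difference was -0.30 over these integrin genes and 0.092 over all entries. It was 0.032 over the 8 alpha subunits tested and -0.64 over the 6 beta subunits tested.

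Of the laminin-binding receptors, ITGB1 and ITGA3 were the most abundant members in each of the 9 libraries. ITGB1, the beta subunit that pairs with the largest number of alpha subunits, measured 212.6, 213.4 and 164.9 FPKM in the control, 189.4, 204.1 and 185.9 FPKM in the 3 dpi knockdown and 136.0, 133.7 and 120.6 FPKM in the 7 dpi knockdown. All the 7 dpi knockdown libraries lay below all the others, as they did in one direction or the other for 62.3% of all entries between the knockdown groups and for 55.9% between the 7 dpi knockdown and the control. The mean of ITGB1 at 7 dpi was 67.4% of that at 3 dpi in the knockdown, a difference of -0.57 ± 0.106 (SE, limma, FDR 0.00116). It did not pass after quantile normalization (FDR 0.0206).

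ITGA3, the alpha subunit that binds laminins containing LAMA5 or LAMA3, measured 148.1, 150.4 and 167.2 FPKM, 177.5, 171.1 and 161.3 FPKM and 117.4, 113.5 and 103.6 FPKM in the same order of groups. It was lower in every 7 dpi knockdown library, at 65.6% of the 3 dpi knockdown mean (-0.61 ± 0.0812, FDR 0.000121). ITGB4, whose long tail ties the receptor to keratin filaments in epithelia, measured 91.4, 81.9 and 103.5 FPKM in the control, 108.3, 104.4 and 101.4 FPKM in the 3 dpi knockdown and 50.9, 49.4 and 47.3 FPKM in the 7 dpi knockdown. The 7 dpi libraries lay close together and held 47.0% of the 3 dpi knockdown mean (-1.09 ± 0.0889, FDR 3.49e-06), which is close to the fold threshold. With the values rescaled to TPM the difference was -0.99, past the FDR but short of that threshold, so the call was lost. ITGA6, with which ITGB4 pairs, measured 14.2, 15.4 and 11.5 FPKM, 15.4, 15.4 and 14.9 FPKM and 17.0, 15.5 and 12.7 FPKM, and the groups overlapped (-0.029 ± 0.129, FDR 0.871). ITGA7, a laminin receptor best known from muscle and also found in glioma cells, measured 18.2, 17.4 and 23.5 FPKM, 24.1, 23.0 and 21.0 FPKM and 31.1, 31.2 and 27.3 FPKM. Its 7 dpi knockdown libraries were the highest, but the difference from the 3 dpi knockdown of 0.39 ± 0.118 had an FDR of 0.0168 and did not pass. It passed in 3 of the 19 other settings, which include leaving out control replicate 3 (FDR 0.00157).

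**Figure D1:**
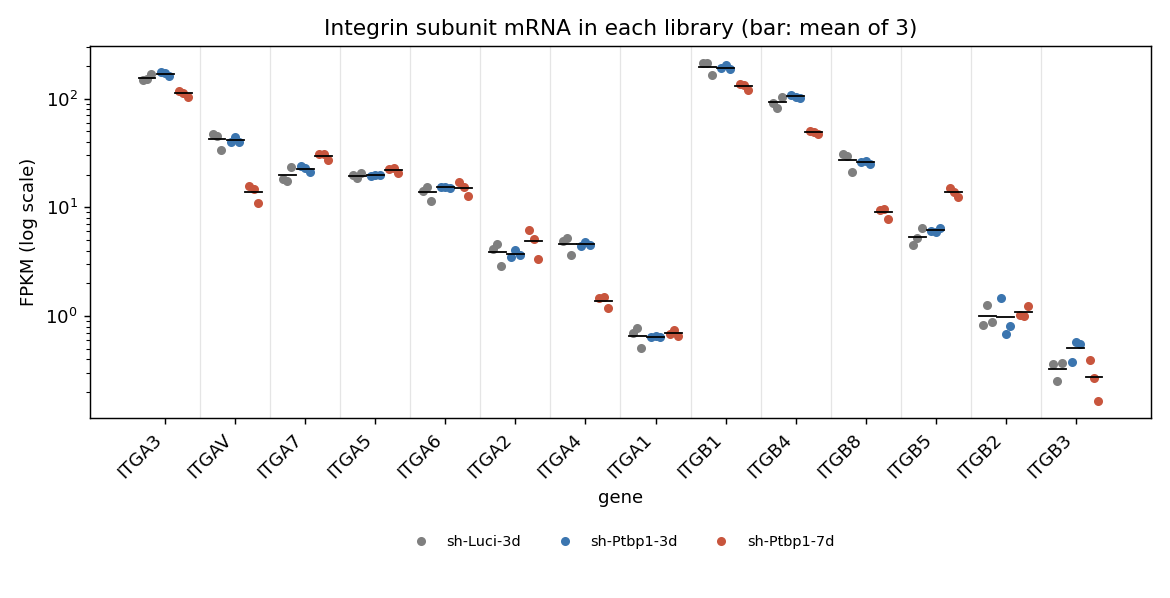
FPKM on a log axis of the 14 integrin genes tested, alpha subunits on the left and beta subunits on the right, each point a library and each bar the mean of 3. The 7 dpi knockdown points of ITGAV, ITGA4, ITGB4 and ITGB8 sit below those of both 3 dpi groups, and those of ITGB5 above them.

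The subunits of receptors that bind through arginine-glycine-aspartate moved in both directions. ITGAV, the alpha subunit shared by ITGB3, ITGB5 and ITGB8, measured 47.6, 45.4 and 33.6 FPKM in the control, 39.8, 44.5 and 40.0 FPKM in the 3 dpi knockdown and 15.7, 14.9 and 11.0 FPKM in the 7 dpi knockdown. The highest 7 dpi library was below the lowest 3 dpi library, and the mean was 33.5% of that in the 3 dpi knockdown (-1.59 ± 0.155, FDR 1.25e-05). ITGB8, which with ITGAV binds the latent form of TGF-beta, measured 31.2, 29.5 and 21.1 FPKM, 26.2, 26.6 and 25.2 FPKM and 9.48, 9.74 and 7.85 FPKM. It too was lower in all 7 dpi libraries, at 34.7% of the 3 dpi knockdown mean (-1.52 ± 0.141, FDR 8.35e-06).

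ITGB5, the vitronectin-binding partner of ITGAV, went the other way, with 4.51, 5.18 and 6.43 FPKM in the control, 6.11, 5.89 and 6.51 FPKM in the 3 dpi knockdown and 15.0, 13.9 and 12.5 FPKM in the 7 dpi knockdown. Each 7 dpi library held more than any 3 dpi library, and the mean was 2.24-fold that of the 3 dpi knockdown (1.15 ± 0.131, FDR 3.84e-05). In the 3 dpi knockdown group ITGB8 was the higher of these 2 beta subunits in every library, and in the 7 dpi knockdown group ITGB5 was. ITGA5, the fibronectin receptor's alpha subunit, measured 19.7, 18.5 and 20.6 FPKM, 19.6, 19.9 and 19.6 FPKM and 22.6, 23.2 and 20.5 FPKM, and its difference of 0.16 ± 0.0784 did not pass (FDR 0.109). ITGB3 lay between 0.166 and 0.577 FPKM over the 9 libraries and did not pass (-0.72 ± 0.293, FDR 0.0642). Of the exonic bases of ITGB3, 51.6% are shared with an overlapping readthrough gene that was listed at 0.

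ITGA4, which pairs with ITGB1 or ITGB7 and binds VCAM1 and fibronectin, measured 4.95, 5.20 and 3.65 FPKM in the control, 4.43, 4.84 and 4.46 FPKM in the 3 dpi knockdown and 1.48, 1.48 and 1.20 FPKM in the 7 dpi knockdown. The 7 dpi libraries lay apart from the rest, at 30.3% of the 3 dpi knockdown mean (-1.66 ± 0.154, FDR 8.45e-06). The collagen-binding alpha subunits were low. ITGA2 measured 4.10, 4.59 and 2.90 FPKM, 3.46, 4.02 and 3.63 FPKM and 6.14, 5.13 and 3.38 FPKM and the groups overlapped (0.35 ± 0.219, FDR 0.207), and ITGA1 lay between 0.506 and 0.783 FPKM in all libraries. ITGB2, the beta subunit of leukocytes, measured 0.827, 1.28 and 0.878 FPKM, 1.47, 0.685 and 0.818 FPKM and 1.02, 0.992 and 1.23 FPKM, with overlap between every pair of groups.

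Among the ligands, each of the 7 laminin genes tested passed the FDR between the knockdown groups, with 3 risen and 4 fallen. Of all entries, 35.8% passed, 20.3% having risen and 15.5% fallen. Both directions occurred among the alpha chains and among the beta chains. LAMA2 was called higher and LAMA4 and LAMB3 lower, 3 of 7 where 14.2% of all entries were called. The median log2 difference was -0.46 over these laminin genes against 0.092 over all entries.

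The abundant beta chains rose. LAMB2, which is found in synaptic and vascular basement membranes, measured 51.0, 47.6 and 59.6 FPKM in the control, 59.7, 55.4 and 53.7 FPKM in the 3 dpi knockdown and 105.1, 102.9 and 93.9 FPKM in the 7 dpi knockdown. Its 7 dpi libraries were far above the others, and the mean was 1.79-fold that of the 3 dpi knockdown (0.84 ± 0.0940, FDR 3.44e-05). LAMB1, the beta chain made from early development on, measured 50.3, 51.1 and 48.0 FPKM, 44.7, 47.4 and 43.5 FPKM and 69.7, 70.9 and 58.8 FPKM. It was likewise highest in each 7 dpi library, at 1.47-fold (0.55 ± 0.0856, FDR 0.00035).

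LAMB3, which together with LAMA3 is part of the laminin trimer of epidermal anchoring, measured 5.73, 5.49 and 6.12 FPKM in the control, 7.65, 7.54 and 6.89 FPKM in the 3 dpi knockdown and 1.40, 0.712 and 1.16 FPKM in the 7 dpi knockdown. The highest 7 dpi library held less than any 3 dpi library, and the mean was 14.8% of that in the 3 dpi knockdown (-2.69 ± 0.193, FDR 1.32e-06). LAMA3 did not go above 0.0427 FPKM in any library and was not tested, so its mRNA was at or near 0 throughout.

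The keratinocyte and epithelial markers KRT5, KRT14, CDH1 and EPCAM did not go above 0.316 FPKM in any library. The fifth gene of that list, KRT15, was the only one of the 5 to reach 1 FPKM, and it carried the summed level of the list from between 78.6 and 95.9 FPKM in the 3 dpi knockdown to between 0.126 and 0.238 FPKM in the 7 dpi knockdown. KRT15 thus moved with LAMB3 and ITGB4, and its part in those results was not tested.

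The alpha chains split. LAMA4, an alpha chain of endothelial and mesenchymal basement membranes, measured 16.3, 16.4 and 14.9 FPKM in the control, 14.7, 15.5 and 13.1 FPKM in the 3 dpi knockdown and 4.78, 4.48 and 4.15 FPKM in the 7 dpi knockdown. The 7 dpi values were tightly grouped and well below the others, at 31.0% of the 3 dpi knockdown mean (-1.67 ± 0.0975, FDR 3.13e-07). The endothelial markers PECAM1, CDH5, VWF, KDR and TEK did not go above 0.591 FPKM, and their summed level lay between 0.472 and 0.906 FPKM in the 3 dpi knockdown and between 0.126 and 0.232 FPKM in the 7 dpi knockdown. Of the 2 that were tested, CDH5 was called lower (-1.91, FDR 0.00244), where 14.2% of all entries were called and 5.9% called lower. KDR did not pass (-0.86, FDR 0.0305). CDH5 averaged 0.363 FPKM in the control, 0.392 FPKM in the 3 dpi knockdown and 0.0271 FPKM in the 7 dpi knockdown. It thus reached the filter of 0.1 FPKM only through the 3 dpi groups. The part of these markers in the LAMA4 result was not tested. LAMA5 measured 42.1, 38.5 and 32.8 FPKM in the 7 dpi knockdown, below all of its 3 dpi knockdown libraries given above (-0.57 ± 0.101, FDR 0.000863). LAMA2, the chain of muscle and of peripheral nerve, was low but rose, with 0.802, 0.875 and 0.680 FPKM, 0.698, 0.832 and 0.671 FPKM and 2.27, 2.04 and 1.67 FPKM. All 7 dpi libraries exceeded all 3 dpi libraries, and the mean was 2.72-fold that of the 3 dpi knockdown (1.32 ± 0.181, FDR 0.000147).

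LAMC1, the gamma chain of most laminins, measured 51.1, 49.9 and 43.9 FPKM in the control, 52.1, 52.0 and 50.9 FPKM in the 3 dpi knockdown and 41.5, 40.1 and 31.9 FPKM in the 7 dpi knockdown. The 7 dpi libraries were lower, by 0.46 ± 0.105 on the log2 scale (FDR 0.00401), but the FDR was not passed in 5 of the 19 other settings, 3 of which left out 3 dpi knockdown replicate 1, 2 or 3 (highest FDR 0.0228). LAMB1 and LAMB4 lie 20.3 kb apart on the same strand of chromosome 7.

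**Figure D2:**
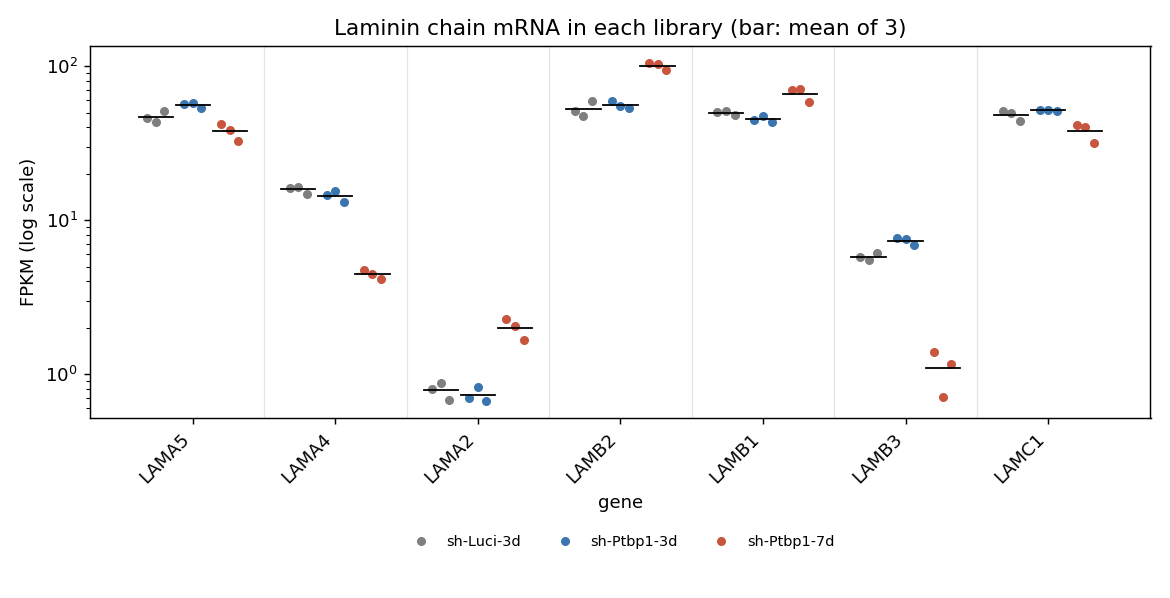
FPKM on a log axis of the 7 laminin genes tested, grouped into alpha, beta and gamma chains, each point a library and each bar the mean of 3. LAMB2 and LAMB1 were highest at 7 dpi, and LAMB3 fell from between 6.89 and 7.65 FPKM in the 3 dpi knockdown to between 0.712 and 1.40 FPKM.

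Levels were also summed over classes. The alpha subunits summed to 259.6 ± 3.34 FPKM in the control, 278.1 ± 10.7 FPKM in the 3 dpi knockdown and 199.7 ± 16.9 FPKM in the 7 dpi knockdown (SD, n = 3 each), and the beta subunits to 323.3 ± 23.1, 331.5 ± 10.9 and 203.5 ± 12.2 FPKM. Both sums were lower in every 7 dpi library than in any 3 dpi library. The laminin alpha chains summed to 63.6 ± 3.06, 71.1 ± 3.61 and 44.3 ± 5.28 FPKM and the beta chains to 108.4 ± 4.85, 108.8 ± 4.17 and 168.4 ± 12.4 FPKM. Of these 4 classes, the laminin beta chains alone were higher at 7 dpi, and the sum over the 11 laminin genes of 231.6 ± 8.31 FPKM in the 3 dpi knockdown and 250.6 ± 22.7 FPKM in the 7 dpi knockdown overlapped between the groups. These sums are descriptions, given without a test, and in bulk samples fewer cells of a type and less RNA per cell cannot be told apart.

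**Figure D3:**
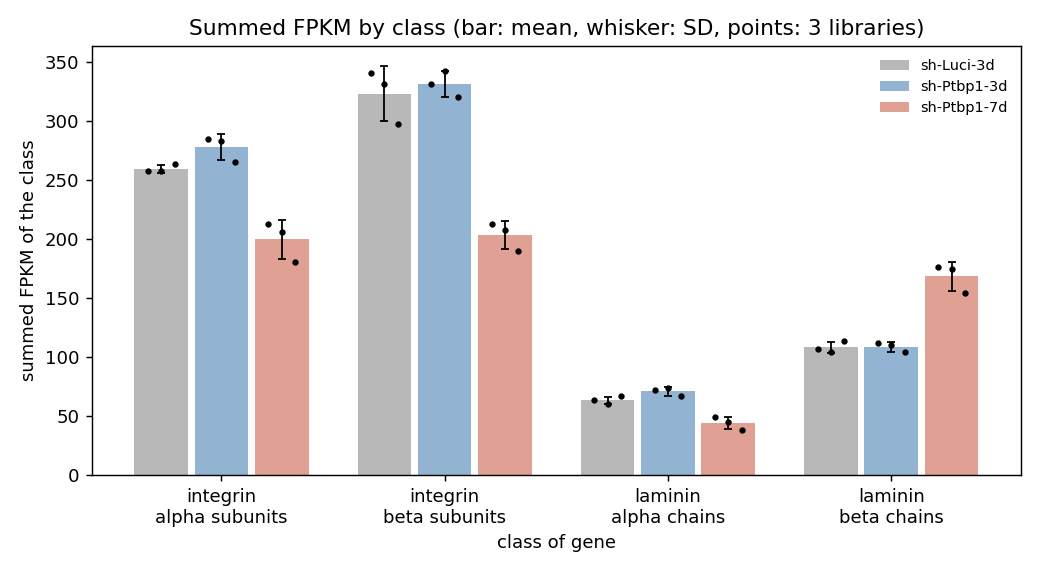
Summed FPKM of 4 classes of gene by group, with bars for the mean, whiskers for the SD and points for the 3 libraries. The integrin beta subunits went from 331.5 FPKM in the 3 dpi knockdown to 203.5 FPKM in the 7 dpi knockdown, and the laminin beta chains from 108.8 to 168.4 FPKM.

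Within each class the shares shifted at 7 dpi. ITGAV made up 14.9 ± 0.862% of the alpha subunit FPKM in the 3 dpi knockdown and 6.90 ± 0.719% in the 7 dpi knockdown, whereas ITGA7 made up 8.15 ± 0.270% and 15.0 ± 0.288% (mean ± SD, n = 3). ITGA3 held the main share in both groups, at 61.1 ± 1.04% and 55.9 ± 1.25%. Of the beta subunits, ITGB5 went from 1.86 ± 0.156% to 6.78 ± 0.248%, and ITGB8 from 7.85 ± 0.0658% to 4.43 ± 0.272%. ITGB1 stayed the main beta subunit, with 58.2 ± 1.30% and 63.9 ± 0.352%. Of the laminin alpha chains, LAMA5 went from 78.7 ± 0.783% to 85.3 ± 0.441%, although its own level fell, and LAMA4 from 20.3 ± 0.760% to 10.1 ± 0.535%. LAMB2 made up 51.7 ± 1.54% and 59.8 ± 1.04% of the beta chain FPKM and LAMB3 6.76 ± 0.123% and 0.651 ± 0.212%.

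The 7 dpi knockdown group was also set against the control, a comparison that shares its 7 dpi libraries with the one above. Of the 14 integrin genes, ITGB5 was called higher (1.36 ± 0.131, SE) and ITGAV (-1.60 ± 0.155), ITGB8 (-1.57 ± 0.141) and ITGA4 (-1.65 ± 0.154) lower, where 14.6% of all entries were called (8.93% higher and 5.68% lower). Of the 7 laminin genes, LAMA2 was called higher (1.24 ± 0.181) and LAMA4 (-1.81 ± 0.0975) and LAMB3 (-2.35 ± 0.193) lower. ITGB4 fell by 0.90 ± 0.0889, past the FDR (1.33e-05) but short of the fold threshold, and ITGA7 rose by 0.61 ± 0.118 (FDR 0.00145). LAMA5 (-0.31, FDR 0.0245) and LAMC1 (-0.36, FDR 0.0152) did not pass in this comparison. Counting the FDR alone, 2 integrin genes rose and 6 fell and 3 laminin genes rose and 2 fell, against 20.6% of all entries rising, 15% falling and 35.6% passing in all. The median log2 difference was -0.070 over the integrin genes, -0.31 over the laminin genes and 0.099 over all entries. Of all calls here, 1388 of 2271 were higher, against 1092 of 2213 after quantile normalization.

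**Figure D4:**
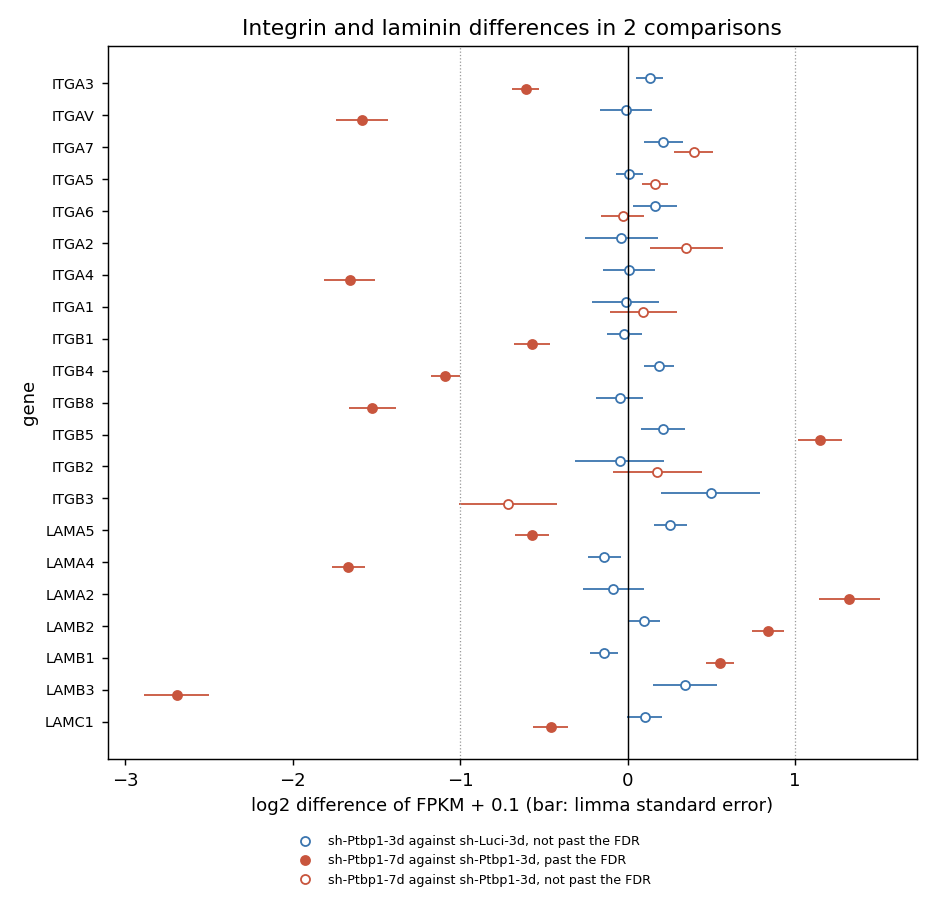
Log2 differences of FPKM + 0.1 with limma standard errors for the 21 members tested, blue for the 3 dpi knockdown against the control and red for the 7 dpi knockdown against the 3 dpi knockdown, filled where the FDR was passed, and dotted lines at a fold change of 2. All blue points are open, and the red points reach from -2.69 (LAMB3) to 1.32 (LAMA2).

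The other 10 members had means under 0.1 FPKM and were not tested. ITGA8 was listed at 0 in every library, and ITGA9, ITGA10, ITGB6, ITGB7, LAMA1, LAMA3 and LAMC3 did not go above 0.140 FPKM. ITGB7 shares 42.1% of its exonic bases with ZNF740 on the opposite strand. ITGA11, a collagen receptor subunit of fibroblasts, measured 0.223, 0.189 and 0.169 FPKM in the 7 dpi knockdown and at most 0.019 FPKM in any 3 dpi library. LAMB4 measured 0.200, 0.211 and 0.253 FPKM in the 7 dpi knockdown and at most 0.0454 FPKM elsewhere. Both were thus highest in each 7 dpi library, and with the filter on low values left out their differences from the 3 dpi knockdown were 1.45 (FDR 5.53e-05) and 1.36 (FDR 0.000143). In that fit 5231 of 19640 entries passed the FDR, and no other low member that could be fitted did. Both genes were picked out here by their 7 dpi values, which did not exceed 0.253 FPKM, so these FDRs are no independent support.

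Genes that work with the members were followed in 4 lists. Of 6 further integrin alpha subunits, which belong mainly to blood cells, 2 were tested, where 14.2% of all entries were called and 5.9% called lower. ITGAE, the partner of ITGB7, was called lower at 7 dpi than in the 3 dpi knockdown (-2.10 ± 0.146, SE, FDR 1.03e-06). It measured 5.05, 4.53 and 6.02 FPKM in the control, 6.86, 6.33 and 5.45 FPKM in the 3 dpi knockdown and 1.56, 1.29 and 1.26 FPKM in the 7 dpi knockdown, so its 7 dpi libraries lay apart from the rest. Of the blood cell markers, PTPRC, CD3E and HBB did not go above 0.0903 FPKM. CD14, a monocyte marker of the same list, lay between 0.434 and 0.580 FPKM in the 3 dpi knockdown and between 0.632 and 1.11 FPKM in the 7 dpi knockdown (0.67 ± 0.250, FDR 0.0437, not passed).

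The proteins that join integrin tails to actin were taken as the next list. Of 34 such adhesion adaptors, 30 were tested, and 14 fell and 2 rose between the knockdown groups, with a median log2 difference of -0.33, beside 15.5% of all entries falling and 20.3% rising. The 4 that were called, of 30 tested where 14.2% of all entries were called, were all lower, and were FLNA (-2.12), a filamin that crosslinks actin, FERMT1 (-1.85), a kindlin that activates integrins, TNS3 (-1.39), a tensin, and VCL (-1.13), or vinculin. FLNA measured 417.9, 428.4 and 484.5 FPKM in the control, 481.3, 457.3 and 438.3 FPKM in the 3 dpi knockdown and 115.9, 108.5 and 93.0 FPKM in the 7 dpi knockdown, with the 7 dpi libraries far below the rest.

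Of 13 laminin partners (nidogens, perlecan, agrin, dystroglycan and its complex, syndecans and BCAM), 12 were tested, and 5 rose and 3 fell, where 35.8% of all entries passed the FDR, and 3 were called, where 14.2% of all entries were. BCAM, a receptor for LAMA5, was called higher (1.85 ± 0.137, FDR 1.71e-06), with 6.33, 5.62 and 5.28 FPKM in the 3 dpi knockdown and 21.6, 20.4 and 20.5 FPKM in the 7 dpi knockdown. The heparan sulfate carriers SDC2 (1.53) and SDC1 (-1.23) were called in opposite directions. The median of this list was -0.025. Of 17 other integrin ligands, 15 were tested, and 4 rose and 6 fell, with a median of -0.30 and 7 called, read against the same shares of all entries. TNC (1.61), a matrix protein of glioma that ITGAV-containing receptors bind, and POSTN (1.68) were called higher. POSTN averaged 0.0326 FPKM in the control, 0.0689 FPKM in the 3 dpi knockdown and 0.444 FPKM in the 7 dpi knockdown. It thus reached the filter of 0.1 FPKM only through the 7 dpi libraries, and its call and place in these counts rest on that. L1CAM (-2.90), FBN1 (-2.09), THBS1 (-1.83) and SPP1 (-1.81) were the 4 with the largest falls among the 5 called lower, and the remaining one, named after its values were seen, was EDIL3 (-1.36). SPP1, or osteopontin, a ligand of ITGAV and ITGA4 receptors, measured 468.6, 485.6 and 450.7 FPKM in the 3 dpi knockdown and 133.4, 129.9 and 136.2 FPKM in the 7 dpi knockdown. No gene of these 4 lists passed the FDR between the 3 dpi groups in the limma fit, where 0.0322% of all entries did. At an unadjusted p below 0.05, as found for 7.24% of all entries, was 1 of their genes, the adaptor RSU1 (named after its values were seen). Against the control, the adaptors again had 14 fallen and 2 risen at 7 dpi, the laminin partners 3 and 5 and the other ligands 6 and 4, where 15% of all entries fell and 20.6% rose.

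**Figure D5:**
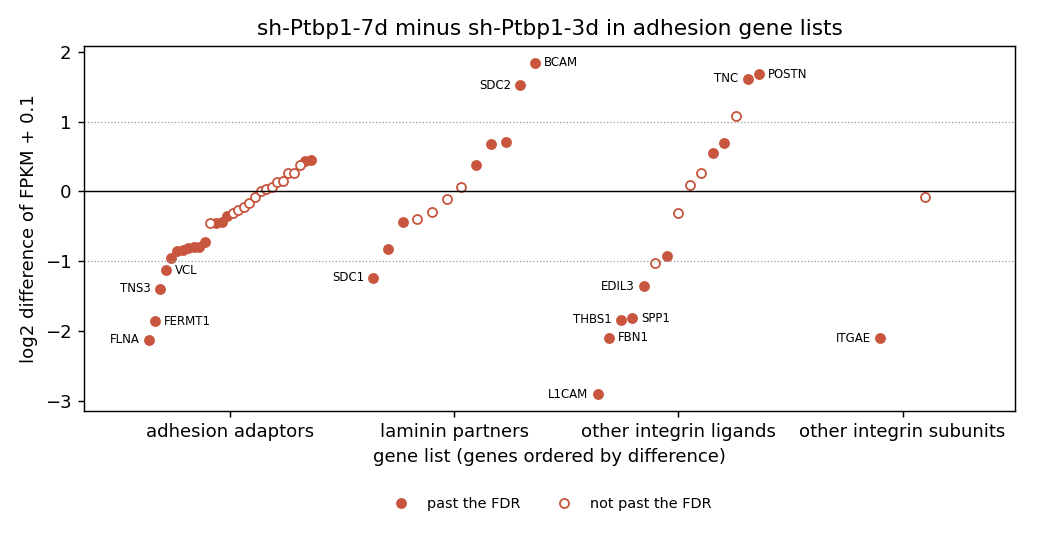
Log2 difference of FPKM + 0.1 between the 7 and 3 dpi knockdown for each tested gene of 4 lists, ordered by difference within a list, filled where the FDR was passed and named where the gene was called. All 4 adaptors that were called lie below -1, and the laminin partners and other ligands reach from -2.90 (L1CAM) to 1.85 (BCAM).

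The wider state of the cells moved with these results. The summed glioma and astroglial markers, 4 of which reached 1 FPKM, lay between 4407 and 4710 FPKM in the 3 dpi knockdown and between 1203 and 1339 FPKM in the 7 dpi knockdown, most of it VIM. Of these 5 markers, VIM and CD44 were called lower and S100B higher, where 14.2% of all entries were called. S100B lay between 0.0705 and 0.180 FPKM in the 3 dpi knockdown and between 0.663 and 0.933 FPKM in the 7 dpi knockdown. The summed neuronal markers lay between 332.7 and 341.3 FPKM and between 153.1 and 161.4 FPKM, with TUBB3 fallen (-1.42) and MAP2 risen (0.94), and RBFOX3 and SYN1 at no more than 0.322 FPKM. The blood and immune markers and the endothelial markers summed to at most 1.18 FPKM in any library. The part of these shifts in the integrin and laminin results was not tested.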

How the data were processed

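Total RNA of infected U251 cells was sequenced on an Illumina HiSeq by the study. The authors deposited 1 table of FPKM values, with a column per library, 19932 gene symbols and 2363 assembled loci as rows, and a file of positions of the assembled loci. Per the submitters' processing notes, reads were aligned with HISAT2 to GRCh38; the counting program and strandedness are not given in the sources used here. Libraries were grouped by their titles (3 groups of 3).

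Log2(FPKM + 0.1) was fitted with limma 3.58.1 (R 4.3.3; trend, 3 groups in 1 model of 9 libraries) for the 15551 entries whose mean reached 0.1 FPKM, with Benjamini-Hochberg adjustment over the whole table. Calls took the study's thresholds: fold changes above 2, and FDR below 0.05 for the 3 dpi groups or 0.01 where 7 dpi libraries took part. Between the 3 dpi groups the study reported far more genes at these thresholds than the 2 entries called here. A member not called at 3 dpi in this fit may thus have been listed by the study's own procedure. An exact permutation test of 3 against 3 cannot go below 0.1, so none was used. Low FPKM values were checked for whole-read steps and gave none, since no ratio window of low genes held more than 0.482% of them, so depth and its error are unknown and no count test was run. On simulated normal data with the fitted spread, 200 genes that were not low were shifted past the fold threshold. Of these, 196 were recovered for the 7 dpi knockdown against the 3 dpi knockdown among 15551, with 2 false calls. Smaller shifts and shifts of low genes were not tried.

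Members and gene lists were chosen with earlier results of these data known. Members whose mean reached 1 FPKM are given per library and the rest by range. Of the other lists, genes called are named, at most 4 in each direction. Positions and overlaps come from GENCODE release 29, in which the 31 members described were found, and no assembled locus overlapped a member. Python 3.11.15, pandas 2.3.3 and matplotlib 3.10.9 were used. Alternatives were another pseudocount, other filters and scalings, fits of 2 groups, without trend or with a replicate block, and leaving out each library. No set test was run. A member of the family and 2 genes of the other lists are not reported here and enter no count or sum over members or lists.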

Additional observations from a re-analysis of the deposited data

How the results depend on the processing

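Each member had 18 or 19 alternative settings that could be run. Over them, 19 of the 21 members kept their side of the FDR threshold between the 3 dpi groups. Between the knockdown groups 18 did, and between the 7 dpi knockdown and the control 17 did. No member past the FDR turned its sign. Differences that passed the FDR in no setting turned sign for 8, 3 and 3 members. With a pseudocount of 1 FPKM, 2 laminin genes instead of 3 were called in each comparison of 7 dpi (LAMA4 and LAMB3), and entries called among all genes went from 2211 to 1255 between the knockdown groups and from 2271 to 1269 against the control; the alternative compresses low values by its construction. With TPM, 4 integrin genes instead of 5 were called between the knockdown groups (ITGB4 lost). With the FDR alone, 7 laminin genes instead of 3 passed between the knockdown groups, and 8 integrin genes instead of 4 and 5 laminin genes instead of 3 against the control. Between the knockdown groups ITGB1 did not pass after quantile normalization (FDR 0.0206), which moved the median of all entries by -0.10 (-0.11 against the control). Against the control, ITGB1 was lost the same way (FDR 0.0117), and LAMB1 was lost with the groups fitted alone, without 7 dpi knockdown replicate 1 and without replicate 2 (highest FDR 0.0142), whereas LAMA5 passed under median-ratio scaling and LAMC1 under that, the replicate block and without control replicate 3 (lowest FDR 0.00678 and 0.00326). The cause was not tested. Entries called between the 3 dpi groups numbered 2, and between 0 and 57 over the alternatives. Leaving out 1 library kept 5 integrin and 3 laminin calls between the knockdown groups, and 4 integrin and 3 to 4 laminin calls against the control.

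The replicate numbers were checked for pairing. Deviations of same-numbered libraries correlated between -0.0317 and 0.0512 over 9 pairs, and those of other pairs between -0.0729 and 0.0608. No pairing by number was thus seen over all entries tested. A pairing that touches few genes would not show in such correlations. With the number as a replicate block, 5 integrin and 3 laminin genes were called between the knockdown groups, 4 and 3 against the control and 0 between the 3 dpi groups, and entries called went from 2211 to 2140, from 2271 to 2217 and from 2 to 0.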
